A study of Bos taurus with 6 samples.

Results

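The genes described here are 44 members of transforming growth factor beta (TGF-beta), bone morphogenetic protein (BMP) and SMAD signalling, together with transcripts known to respond to it, in bovine cumulus cells treated with recombinant follicle-stimulating hormone (rFSH). They were chosen by name, and each was read from its named probe of highest mean raw intensity over all arrays and channels. Of the 44 listed genes, 42 had a named probe and 37 were bright enough to test, out of 15229 named genes on the array and 13134 tested. Cumulus cells are the somatic cells around the oocyte. They came from cumulus-oocyte complexes of Holstein cow ovaries collected at a slaughterhouse and were matured in vitro with 0.5 µg/mL rFSH or, as control, with no rFSH; estradiol (1 µg/mL) was in both media. There were 3 biological replicates, numbered 2, 3 and 4, and each was run on a pair of two-colour arrays with the dyes exchanged, so that each of the 6 arrays set rFSH-treated cells directly against the control of its own replicate. A control time of 6 h appears in the labels, whereas the described culture lasted 22 to 24 h with and without rFSH, so it is not settled whether the groups were matched in time. Each ratio below holds any difference in time together with the difference in rFSH.

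Ligands of this family bind pairs of type I and type II receptor kinases, which phosphorylate receptor SMADs. TGF-beta and activin receptors act mainly through SMAD2 and SMAD3, BMP receptors mainly through SMAD1, SMAD5 and SMAD9, and both sets join SMAD4 to enter the nucleus. Outside the cell, antagonists such as noggin hold ligands away from their receptors, and inside it inhibitory SMADs, SMURF ubiquitin ligases and nuclear co-repressors limit the response. In the ovary, oocytes, granulosa cells and cumulus cells all make ligands of the family, and the signals act on growth, steroid production and cumulus expansion.

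The cumulus and granulosa markers INHA, GJA1, FST, FSHR and AMH exceeded the negative control spots in all 12 channel readings. Of 13 such markers 12 were tested, FOXL2 being above the spots on 4 rFSH and 4 control arrays, and AMHR2 did not exceed them anywhere. The matrix genes HAS2 and TNFAIP6 on this list rose and the FSH receptor gene FSHR fell by 0.83 on the log2 scale (adjusted p = 0.0479 in limma). The summed normalized intensity of the list was 70150 to 93193 in rFSH-treated cells and 55812 to 75591 in control cells. In all, 38.2% to 83.3% of probes exceeded the negative controls in a channel of an array, the lowest being the control channel of a replicate 2 array (rFSH labelled with Cy3). The paired arrays of a replicate correlated across probes, in log2 ratios of rFSH over control, at 0.495 in replicate 2, 0.722 in replicate 3 and 0.708 in replicate 4. Summed normalized intensity of the theca and stroma markers was 14253 to 19843 in rFSH-treated cells and 20793 to 29639 in control cells. Of the 10 tested markers on that list, ACTA2 (log2 ratio -1.29) and MYH11 (-0.68) were called lower and 0 higher. At an unadjusted limma p under 0.05, 2 were lower and 1 higher. The ratio was above 0 for 4 and below 0 for 6, with a median of -0.03 and a highest value of 0.62. The theca cell markers CYP17A1 (0.05) and INSL3 (0.09) were not called. Sums of the oocyte markers were 1639 to 4957 in rFSH-treated cells and 1581 to 4907 in control cells, and 0 of 11 tested markers were called in limma, with 0 at an unadjusted p under 0.05. Within the pairs, however, their mean log2 ratio of rFSH over control was 0.72 in replicate 2, -0.98 in replicate 3 and 0.05 in replicate 4, led by genes such as ZP2 (1.46, -3.14 and 0.22), so oocyte transcripts were on average higher with rFSH in replicate 2 and lower in replicate 3. For blood and endothelium markers the sums were 2074 to 4790 in rFSH-treated cells and 1596 to 3314 in control cells. Of these, 0 of 8 were called in limma, with 2 higher and 0 lower at an unadjusted p under 0.05, and 6 ratios were above 0. The part of other cell types in the results below was not tested. Since RNA was taken from whole cell preparations, fewer cells of a type and less RNA per cell cannot be told apart.

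With rFSH, 3 of the 37 tested members rose and 3 fell. The transcripts that rose were those of the ligand BMP6 (3.69-fold), the BMP antagonist NOG (2.20-fold) and the nuclear co-repressor TGIF2 (1.91-fold). Those that fell were the ligand TGFB2, the activin receptor ACVR1B and the receptor SMAD SMAD3, which were 1.99-fold, 1.94-fold and 1.54-fold lower. All 6 ratios had the same sign on 6 of 6 arrays, and their limma p values, adjusted by the Benjamini-Hochberg method over 34821 tested probes and called at 0.05, lay between 0.0301 and 0.0454. A rise was called for 3.88% and a fall for 4.87% of all tested genes, 8.75% in either direction, against 6 of 37 members. Members were brighter than most genes, with a median raw intensity of 630 against 346, and among genes above the negative controls in all 12 channel readings 13.9% were called, against 5 of 28 such members.

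Many other members differed by less than this threshold. An unadjusted limma p under 0.05 was found for 22 of 37 members (11 higher, 11 lower), against 30.9% of all tested genes. Among those above the negative controls in all 12 channel readings, it was found for 20 of 28 members and 3296 of 7206 genes. The same sign on all 6 arrays was found for 18 members (9 higher, 9 lower), against 26.8% of genes. At that brightness it was found for 16 of 28 members and 2873 of 7206 genes. The levels of rFSH-treated and control cells did not overlap for 19 members, the 6 called and 13 others, against 28.1% of genes. The members did not shift one way, since their median log2 ratio of rFSH over control was 0.04 (0.10 in replicate 2, -0.02 in replicate 3 and 0.08 in replicate 4), beside 0.0065 for all tested genes. The median size of their ratios, regardless of sign, was 0.41 beside 0.19 for all genes, and 0.53 beside 0.35 among those above the negative controls in all readings.

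**Figure D1:**
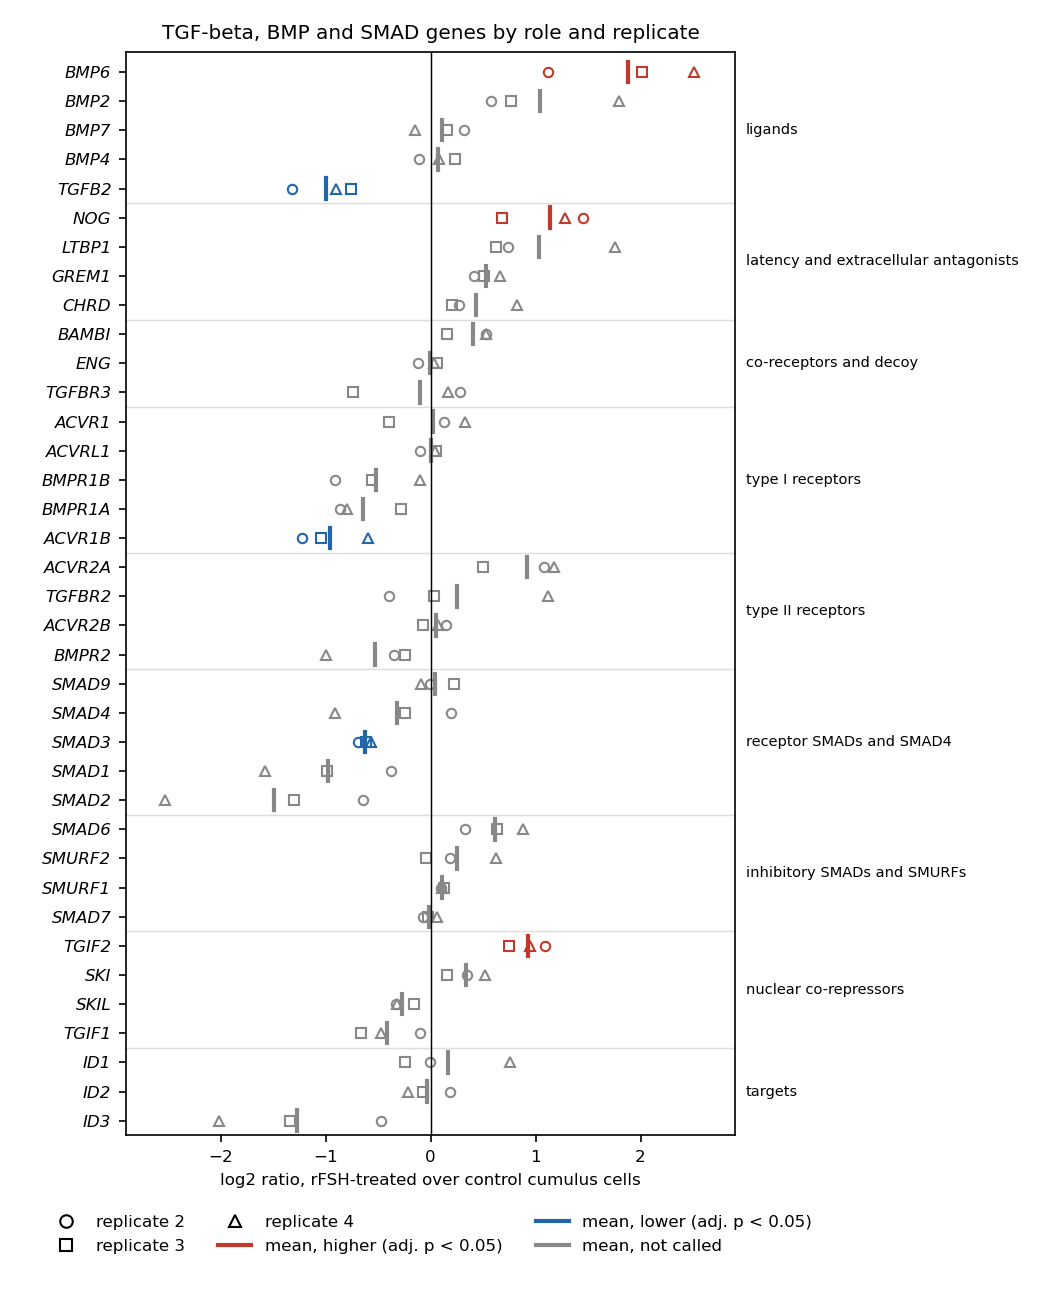
Log2 ratio of rFSH-treated over control cumulus cells (x axis) for the 37 tested members, grouped by role, with open symbols for the 3 replicates, a bar for their mean, and colour for limma calls at an adjusted p of 0.05 (red higher, blue lower). Called genes appear on both sides of 0, and the means run from -1.49 (SMAD2, not called) to 1.88 (BMP6).

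None of the 6 calls held with each replicate left out in turn. Without replicate 2 their adjusted p in limma was 0.136 to 0.181, and without replicate 3 it was 0.0786 to 0.130. Without replicate 4 ACVR1B kept its call (adjusted p = 0.0369) and the other 5 had 0.0527 to 0.0833, while the signs of all 6 stayed the same in each case. Over all tested genes the share called was 0% without replicate 2, 0% without replicate 3 and 5.06% without replicate 4. The losses without replicate 2 or 3 were thus shared by all called genes and say nothing particular about these 6. Testing the 6 arrays with the replicate as a random block and a dye term, in place of the replicate means, called 9 members higher and 7 lower, and with that model calls over all tested genes also went up, to 22.5%.

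The ligands held the largest rise and one of the falls. BMP6 encodes a BMP ligand. Its probe had normalized log2 levels of 10.75, 11.33 and 11.59 in rFSH-treated cells of replicates 2, 3 and 4, against 9.63, 9.32 and 9.08 in control cells. Every rFSH level lay above every control level, and the distance was smallest in replicate 2 and largest in replicate 4. BMP6 thus had a log2 ratio of 1.88 ± 0.70 (SD, n = 3; adjusted p = 0.0448).

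TGFB2, one of the TGF-beta isoforms, had levels of 7.11, 7.14 and 7.25 in rFSH-treated cells, against 8.42, 7.90 and 8.15 in control cells. The rFSH levels were close together and all below the control levels. This gave a log2 ratio of -0.99 ± 0.29 (SD, n = 3; adjusted p = 0.0393). This probe was dim, above the negative controls on 5 rFSH and 6 control arrays, so its ratio rests on low signal.

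BMP2, a second BMP ligand, had levels of 15.17, 14.93 and 15.15 in rFSH-treated cells, against 14.60, 14.16 and 13.35 in control cells. The groups did not overlap, the rFSH levels were alike, and the control levels spread widely, with replicate 4 lowest. The log2 ratio of 1.05 ± 0.66 (SD, n = 3) was positive on 6 of 6 arrays but did not pass in limma (adjusted p = 0.104). BMP7 and BMP4 had ratios of 0.11 and 0.07, with overlapping groups. The probes of TGFB1 and TGFB3 exceeded the negative controls on 2 rFSH arrays each and on 2 and 1 control arrays, too few to test, so TGFB2 was the TGF-beta isoform with a measured ratio.

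Genes for proteins that bind ligands in the extracellular space had positive ratios in 4 of 4 tested cases. NOG, which encodes noggin, a protein that binds BMPs and keeps them from their receptors, had levels of 9.79, 9.14 and 9.47 in rFSH-treated cells, against 8.33, 8.46 and 8.19 in control cells. The groups were well apart, and the smallest distance was in replicate 3. Its log2 ratio was 1.14 ± 0.40 (SD, n = 3; adjusted p = 0.0454).

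GREM1 encodes gremlin, another BMP antagonist. Its levels were 8.07, 8.29 and 8.12 in rFSH-treated cells, against 7.66, 7.79 and 7.45 in control cells. The groups did not overlap, and the ratio was above 0 on 6 of 6 arrays, but its size depended on the dyes. With rFSH in Cy5 the arrays of replicates 2, 3 and 4 had 0.06, 0.39 and 0.35, and with rFSH in Cy3 0.76, 0.62 and 0.98. The GREM1 probe was dim, above the negative controls on 6 rFSH and 5 control arrays. The log2 ratio of 0.53 ± 0.13 (SD, n = 3) lay just outside the threshold (adjusted p = 0.0518). LTBP1, which encodes a protein that anchors latent TGF-beta in the matrix, had levels of 15.12, 15.13 and 15.19 in rFSH-treated cells, against 14.39, 14.51 and 13.43 in control cells. As for BMP2, the rFSH levels were nearly equal and the control cells of replicate 4 were lowest (log2 ratio 1.04 ± 0.63, SD, n = 3; adjusted p = 0.0983). The probes of BMP2 and LTBP1 were very bright. Their rFSH levels lay near those of INHBA (15.36, 15.39 and 15.40), a gene outside the members whose spot was saturated on 5 rFSH arrays. Whether the top of the intensity scale narrowed the rFSH levels or the ratios of BMP2 and LTBP1 was not tested.

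CHRD, which encodes the BMP antagonist chordin, had a log2 ratio of 0.43 ± 0.34 (SD, n = 3; adjusted p = 0.187), with values of 0.27, 0.20 and 0.82 in replicates 2, 3 and 4 and overlapping groups. All 4 tested genes of this role had an unadjusted limma p under 0.05 and a ratio above 0, with a median of 0.78, and 1 was called; over all tested genes 30.9% had such a p, 51.1% a ratio above 0 and 8.75% a call. Their ratios were above 0 under every alternative processing tried. LTBP2 did not exceed the negative controls on an array of either group.

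**Figure D2:**
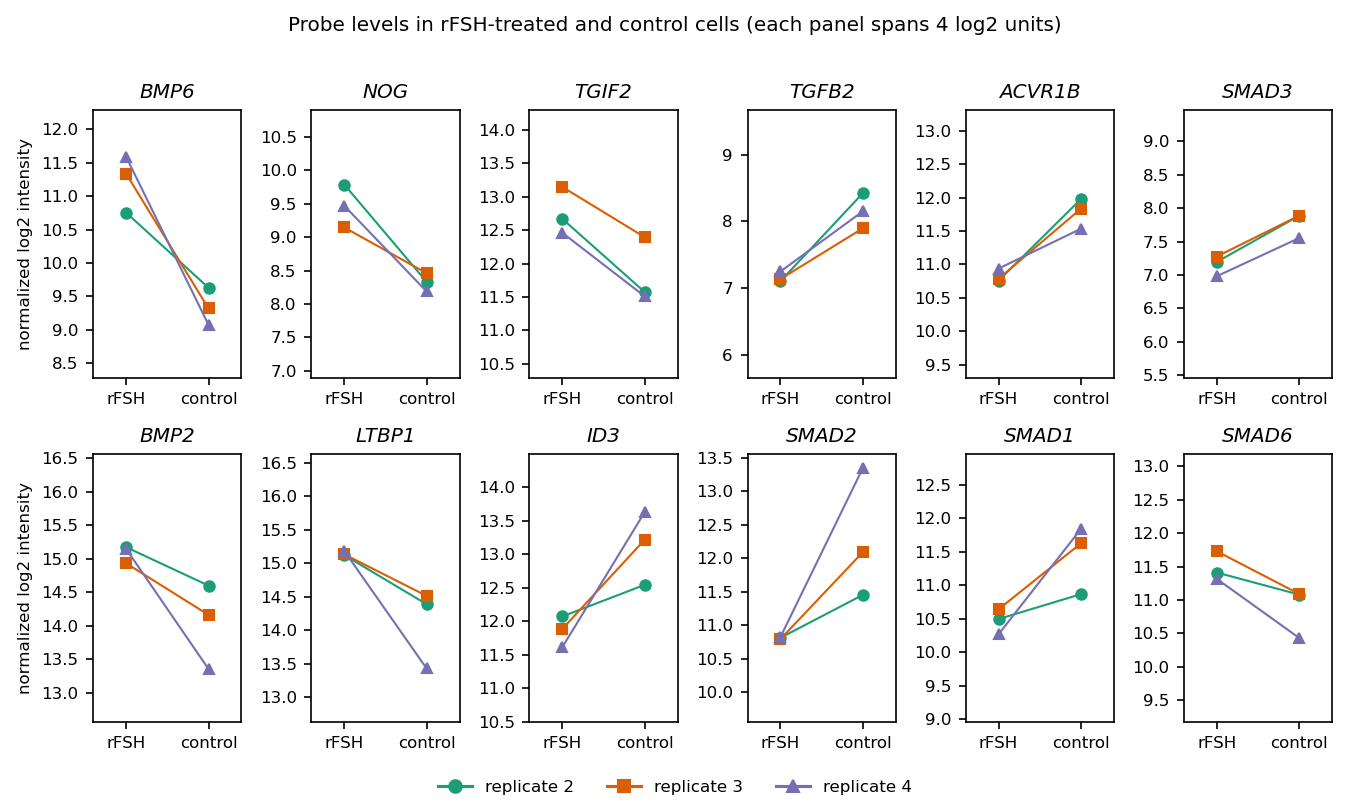
Normalized log2 intensity (y axis, each panel spanning 4 units) in rFSH-treated and control cells for 12 members, with 1 line per replicate. The upper row holds the 6 called genes, in which all rFSH levels lie on one side of all control levels; in the lower row BMP2, LTBP1 and SMAD2 have close rFSH levels and widely spread control levels.

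Among type I receptors, the kinases that phosphorylate SMADs, the activin receptor ACVR1B (also named ALK4) fell. Its levels were 10.76, 10.79 and 10.94 in rFSH-treated cells, against 11.98, 11.83 and 11.53 in control cells. The groups did not overlap, and the distance was smallest in replicate 4. For ACVR1B the log2 ratio came to -0.95 ± 0.32 (SD, n = 3; adjusted p = 0.0454). ACVR1B had 1 probe, which exceeded the negative controls in all 12 readings.

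The BMP receptor BMPR1A had levels of 8.79, 8.97 and 9.25 in rFSH-treated cells, against 9.65, 9.25 and 10.05 in control cells. The highest rFSH and the lowest control level were almost equal, and within each replicate rFSH was lower (log2 ratio -0.64 ± 0.32, SD, n = 3; adjusted p = 0.0833). BMPR1B, its close relative, had levels of 7.72, 7.94 and 7.96 in rFSH-treated cells, against 8.63, 8.50 and 8.06 in control cells. Its distance shrank to almost nothing in replicate 4 (log2 ratio -0.52 ± 0.41, SD, n = 3; adjusted p = 0.169). ACVR1 and ACVRL1, which encode further type I receptors, had ratios of 0.02 and 0.001, and TGFBR1, the TGF-beta type I receptor, was too dim to test.

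No type II receptor was called in limma, and 2 of 4 had an unadjusted p under 0.05, against 30.9% of all tested genes. ACVR2A, which encodes a receptor for activins and some BMPs, had levels of 9.76, 9.32 and 9.47 in rFSH-treated cells, against 8.68, 8.82 and 8.29 in control cells. The groups were apart in every replicate, in the direction opposite to the type I activin receptor ACVR1B (log2 ratio 0.92 ± 0.37, SD, n = 3; adjusted p = 0.0551). BMPR2, the BMP type II receptor, had levels of 7.58, 7.75 and 7.86 in rFSH-treated cells, against 7.94, 7.99 and 8.86 in control cells. The rFSH levels were lower by a small distance in replicates 2 and 3 and by a large one in replicate 4 (log2 ratio -0.53 ± 0.41, SD, n = 3; adjusted p = 0.168).

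TGFBR2 and ACVR2B had ratios of 0.25 and 0.05 with overlapping groups. TGFBR2, the TGF-beta type II receptor, went opposite ways in different replicates, at -0.40 in replicate 2, 0.03 in replicate 3 and 1.12 in replicate 4. Of the co-receptors, TGFBR3 (betaglycan, which presents TGF-beta and inhibin) also split, at 0.28 and 0.17 in replicates 2 and 4 but -0.73 in replicate 3 (log2 ratio -0.10 ± 0.56, SD, n = 3; adjusted p = 0.845). Without replicate 3 its ratio was 0.22. ENG (endoglin), the other co-receptor, had a ratio of -0.0091.

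BAMBI encodes a receptor-like protein without a kinase that acts as a decoy. Its brightest probe had levels of 13.12, 12.79 and 13.53 in rFSH-treated cells, against 12.60, 12.64 and 13.00 in control cells. Replicate 4 was highest in both groups, so the groups overlapped although rFSH was higher within each replicate (log2 ratio 0.40 ± 0.22, SD, n = 3; adjusted p = 0.122).

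Receptor SMADs carry the signal to the nucleus, and of 5 tested genes that include SMAD4, SMAD3 fell and 4 had a ratio below 0. Over all tested genes, 4.87% fell and 6419 of 13134 had a ratio below 0. SMAD3 had levels of 7.20, 7.28 and 6.98 in rFSH-treated cells, against 7.89, 7.89 and 7.55 in control cells. The distance was almost the same in each replicate, and the groups did not overlap. The log2 ratio was -0.62 ± 0.06 (SD, n = 3; adjusted p = 0.0348), from a dim probe that was above the negative controls in all 12 readings.

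SMAD2, the other TGF-beta and activin SMAD, had the lowest mean ratio of the members, but it was not called. Its levels were 10.81, 10.79 and 10.82 in rFSH-treated cells, against 11.45, 12.09 and 13.35 in control cells. The rFSH levels were nearly identical (SD 0.0156), whereas the control levels spread over a wide range (SD 0.965), with replicate 4 highest. The log2 ratio was therefore -1.49 ± 0.96 (SD, n = 3; adjusted p = 0.105), below 0 on 6 of 6 arrays.

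SMAD1, a BMP receptor SMAD, had levels of 10.50, 10.64 and 10.27 in rFSH-treated cells, against 10.87, 11.63 and 11.84 in control cells. The groups did not overlap, and again replicate 4 had the largest distance (log2 ratio -0.98 ± 0.60, SD, n = 3; adjusted p = 0.102). SMAD9, another BMP SMAD, had a ratio of 0.04, and SMAD5 was too dim to test. SMAD4, the shared partner, had a ratio of -0.32 ± 0.55 (SD, n = 3; adjusted p = 0.489) with overlapping groups.

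Of the genes that restrain the receptors and SMADs, none was called in limma, and SMAD6 was the single one of 4 with an unadjusted p under 0.05. SMAD6, an inhibitory SMAD that acts chiefly on BMP signals, had levels of 11.41, 11.73 and 11.32 in rFSH-treated cells, against 11.08, 11.09 and 10.43 in control cells. The groups did not overlap, although 1 of 6 arrays had the opposite sign (log2 ratio 0.62 ± 0.28, SD, n = 3; adjusted p = 0.0758). The size of the SMAD6 ratio depended on the dyes. With rFSH in Cy5 the arrays of replicates 2, 3 and 4 had 0.18, -0.03 and 0.24, and with rFSH in Cy3 0.48, 1.30 and 1.52. The ubiquitin ligase genes SMURF2 and SMURF1 had ratios of 0.26 and 0.11. SMAD7, an inhibitory SMAD for both branches, had a ratio of -0.01 from a probe above the negative controls on 2 rFSH and 3 control arrays.

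Nuclear co-repressors hold SMAD complexes inactive on DNA, and among them TGIF2 had the smallest p value of all members. Its levels were 12.67, 13.15 and 12.46 in rFSH-treated cells, against 11.57, 12.39 and 11.51 in control cells. Replicate 3 was highest in both groups, and the lowest rFSH level lay just above the highest control level. The log2 ratio was 0.93 ± 0.17 (SD, n = 3; adjusted p = 0.0301).

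TGIF1, the paralog of TGIF2, had levels of 8.18, 8.11 and 7.84 in rFSH-treated cells, against 8.29, 8.77 and 8.32 in control cells. Its ratio had the sign opposite to that of TGIF2, and 1 of 6 arrays went the other way (log2 ratio -0.41 ± 0.29, SD, n = 3; adjusted p = 0.161). SKI, a co-repressor that binds SMAD4, had levels of 9.93, 9.74 and 9.76 in rFSH-treated cells, against 9.58, 9.58 and 9.24 in control cells. Each rFSH level was above each control level by a small margin (log2 ratio 0.34 ± 0.18, SD, n = 3; adjusted p = 0.140).

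SKIL encodes the SKI relative SnoN. Its levels were 7.40, 7.49 and 7.78 in rFSH-treated cells, against 7.74, 7.64 and 8.11 in control cells. Within each replicate rFSH was lower, but the groups overlapped and 2 of 6 arrays had the opposite sign (log2 ratio -0.27 ± 0.10, SD, n = 3; adjusted p = 0.148). With the arrays with rFSH in Cy5 alone, the ratio of SKIL was 0.05. The 4 tested co-repressors thus divided into 2 with positive and 2 with negative ratios. Each had an unadjusted limma p under 0.05, as did 30.9% of all tested genes.

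The ID genes encode partners that block DNA binding of other transcription factors and are widely used as readouts of BMP signalling. None of the 3 tested was called in limma, and ID3 had an unadjusted p under 0.05. ID3 had levels of 12.07, 11.89 and 11.61 in rFSH-treated cells, against 12.54, 13.22 and 13.63 in control cells. The groups did not overlap, with the smallest distance in replicate 2 and the largest in replicate 4. The log2 ratio was -1.27 ± 0.78 (SD, n = 3; adjusted p = 0.0971).

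ID1 and ID2 did not share this pattern, with ratios of 0.17 ± 0.53 and -0.03 ± 0.20 (SD, n = 3 each) and overlapping groups. ID1 had values of -0.01, -0.25 and 0.76 in replicates 2, 3 and 4. ID4 and TGFBI, the remaining listed targets, had no probe named for them here and were not analysed. A direct test of ID3 against ID1 or ID2 was not made.

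Among the members, as over all tested genes, the control cells varied more than the rFSH-treated cells. The SD of the control levels over the 3 replicates was the larger in 28 of 37 members (75.7%), against 59.8% of all tested genes. The median SD was 0.16 in rFSH-treated and 0.28 in control cells for members, and 0.16 in rFSH-treated and 0.21 in control cells for all genes. The largest ratio, regardless of sign, fell in replicate 4 for 18 members (48.6%), against 39.9% of all genes. SMAD2, BMP2, LTBP1, ID3, SMAD1, BMPR2 and CHRD were among these 18, so their mean ratios lean on replicate 4. Of the called members BMP6 was also among the 18, with ratios of 1.12, 2.01 and 2.51 in replicates 2, 3 and 4. Among all genes with an unadjusted limma p under 0.05, the control SD was the larger in 65.8%, against 19 of 22 such members (86.4%). The median control SD was 0.32 for these genes and 0.29 for these members. Replicate 4 had the largest ratio in 55% of these genes and 59.1% of these members, so much of the pattern was shared by other changed genes. A cause of the wider control spread was not tested.

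Probes of the same gene did not always agree. In all, 12 members had several probes, 66 over the 42 genes with a probe. ID3 had ratios below 0 at all 5 of its probes, from -1.27 to -0.30, and SMAD2 at both of its probes (-1.49 and -0.63). The ID3 probes with -0.68 and -0.78 were dim, above the negative controls on 3 rFSH and 5 control arrays each. The second SMAD2 probe was dim as well, on 2 rFSH and 4 control arrays, and each of these probes had 1 of 6 arrays above 0. SMAD4 was below 0 at 3 of 3, from -0.91 to -0.07, and SKI above 0 at 3 of 3, from 0.03 to 0.51.

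In 5 members tested probes had opposite signs. ACVR2A had 0.92, 0.27 and -0.04 from the brightest to the dimmest probe. BMPR1A had -0.64, -0.90 and 0.05, and BMPR1B -0.52, -0.06 and 0.05. In these genes the probes near 0 were the dim ones. BAMBI was different, since its second probe was also bright and had -0.28 with a negative sign on 6 of 6 arrays, against 0.40 with a positive sign on 6 of 6 arrays at the first. TGFBR3 had -0.10, -0.44 and 0.11. The direction of BAMBI and TGFBR3 thus depended on the probe, and the mean over all tested probes of BAMBI was -0.03. None of the probes outside the brightest was called in limma. BMP6, NOG, TGIF2, TGFB2, ACVR1B and SMAD3 had 1 probe each, so no second probe bears on the calls.

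**Figure D3:**
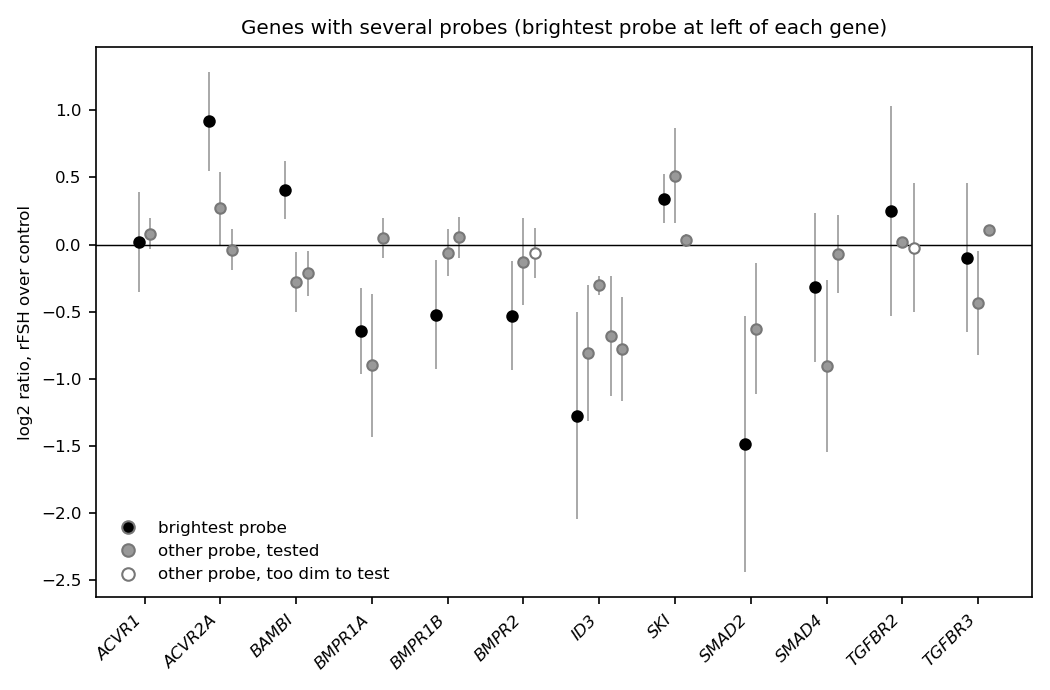
Log2 ratio of rFSH-treated over control cells (y axis) at each probe of the 12 members with several probes, brightest at left, with bars of 1 SD over 3 replicates. All 5 ID3 probes and both SMAD2 probes lie below 0, while BAMBI, TGFBR3, ACVR2A, BMPR1A and BMPR1B have tested probes on both sides of 0.

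Other genes of the pathway were grouped in 4 lists. Among 13 tested further ligands and inhibin family genes (20 listed), 3 rose, none fell (1 lower at an unadjusted limma p under 0.05), and 12 had a ratio above 0, against 3.88% called higher and 51.1% above 0 over all tested genes. The activin and inhibin subunit INHBB had a log2 ratio of 2.30 ± 0.04 (SD, n = 3), and the ligands GDF6 and GDF11 had 0.55 ± 0.09 and 0.51 ± 0.07, at adjusted p of 0.0118, 0.0444 and 0.0464 in limma. On single arrays the INHBB ratio was 1.65 to 1.94 with rFSH in Cy5 and 2.64 to 2.88 in Cy3, a spread that averaging the dyes removes from the SD. The GDF6 probe was dim, above the negative controls on 6 rFSH and 5 control arrays. The anti-Müllerian hormone gene AMH (1.44, adjusted p = 0.0934) did not pass. The spot of the activin subunit gene INHBA was saturated on 5 rFSH arrays and 1 control array, so its ratio is not given. The oocyte-derived ligand gene BMP15 had 0.32 (adjusted p = 0.220), and GDF9 exceeded the negative controls on 1 rFSH and 2 control arrays and was not tested.

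Of 22 tested extracellular antagonists and binding proteins outside the members (26 listed), none rose, with 3 higher at an unadjusted p under 0.05, and 1 fell (4.55% called, against 8.75% of all tested genes). TWSG1, which encodes the BMP-binding protein twisted gastrulation, had levels of 12.02, 11.88 and 12.81 in rFSH-treated cells, against 13.28, 13.10 and 14.72 in control cells. Every rFSH level lay below every control level, opposite in direction to NOG (log2 ratio -1.46 ± 0.39, SD, n = 3; adjusted p = 0.0319). The activin-binding follistatin gene FST had a ratio of -1.17 (adjusted p = 0.0973). The median ratio of this list was 0.02.

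Of 28 tested intracellular regulators outside the SMADs (34 listed), 1 rose and 1 fell. E2F4, a transcription factor that can join SMAD3 in repressor complexes, had a log2 ratio of 0.86 ± 0.14 (SD, n = 3; adjusted p = 0.0302). ITCH, a ubiquitin ligase, had one of -0.60 ± 0.15 (SD, n = 3; adjusted p = 0.0466). The list's share of calls, 7.14%, was close to the 8.75% over all tested genes, so the pair of calls is at the background.

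Transcripts known as targets of the pathway in other cells were tested for 26 genes (31 listed), and 4 rose and 1 fell (19.2% called, against 8.75% of all tested genes). Those that rose were the cell cycle inhibitor CDKN1A (log2 ratio 1.50), the matrix protein fibronectin, FN1 (0.96), and the hyaluronan matrix genes HAS2 (2.61) and TNFAIP6 (3.77), while smooth muscle actin, ACTA2, fell by 1.29. HAS2, TNFAIP6 and ACTA2 were also on the cell type marker lists above, so their calls here are the same measurements and not further ones. FSH and other signals also act on several of these genes, and the list was chosen with earlier results of these data known. The matricellular genes CYR61 (-2.63 ± 1.10, SD, n = 3; adjusted p = 0.0501) and CTGF (-2.01 ± 0.91, SD, n = 3; adjusted p = 0.0579) did not pass. Ratios above 0 were found for 14 of the 26 and below 0 for 12, with a median of 0.06, so these genes did not move one way.

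**Figure D4:**
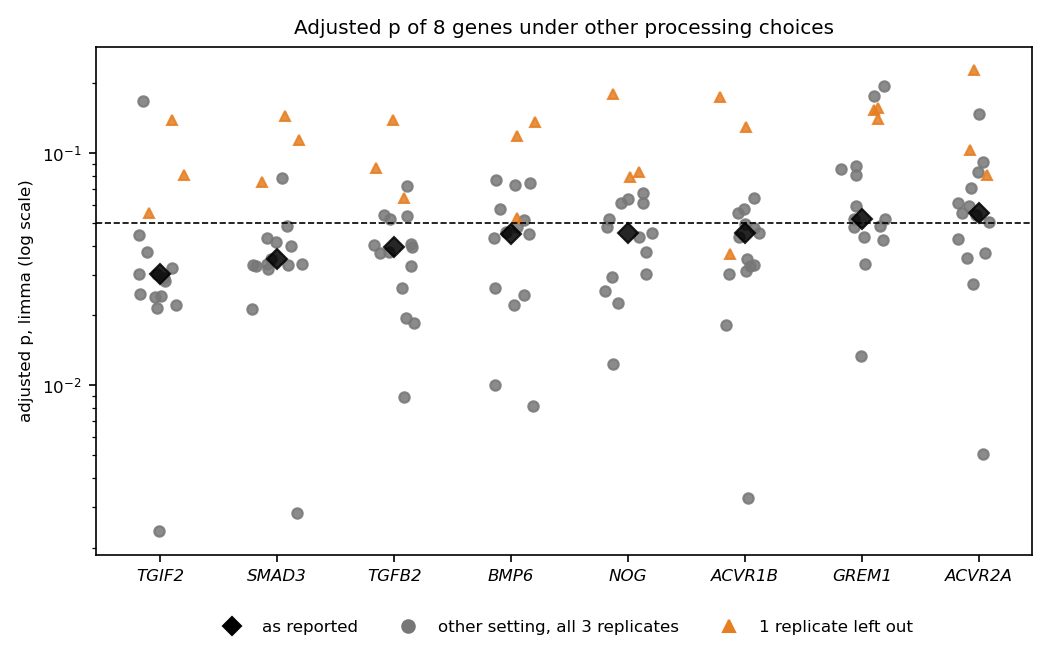
Adjusted p in limma (y axis, log scale) of the 6 called members and of GREM1 and ACVR2A as reported (diamond), under 14 other settings that kept all 3 replicates (circles) and with 1 replicate left out (triangles); the dashed line marks 0.05. TGIF2 and SMAD3 stay below the line in 13 of 14 settings, and BMP6 and NOG in 9. These counts include the settings on probe choice, which left the values of the 6 called genes unchanged, since each has 1 probe.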

How the data were processed

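Amplified RNA of both groups was hybridised together on 6 two-colour Agilent arrays, per the labels' protocols. Per the file headers, the scanner output gives unnormalized intensity of each spot and of its surroundings in the Cy3 and Cy5 channels, with a mark for ignored spots. The authors also deposited normalized log2 ratios, which matched log2 Cy5 over Cy3 (r of 0.976 to 0.992 per array) and had column medians between -0.0202 and 0.00122; how the authors normalized them was not stated in the sources read here, and they were used as 1 of the alternatives.

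In limma 3.58.1 under R 4.3.3, mean intensities were corrected by normexp (offset 50), normalized by loess (span 0.3) and turned to rFSH over control by the dye labels. Dye-swapped arrays were averaged to 1 value per replicate. The 3 values entered lmFit and eBayes, with Benjamini-Hochberg adjustment at 0.05. The array pairs samples of 1 replicate number, so pairing is part of the ratio; replicate ratios correlated at 0.618 to 0.709 across probes. A probe was tested where its signal was above the negative controls (mean plus 2 SD of 153 spots) on 3 or more arrays of a group, which left 34821 of 43794 probes; 1035 were higher and 1173 lower. Levels are per channel after loess and Aquantile, on the log2 scale. No member was saturated, though BMP2 and LTBP1 lay near the top of the intensity scale. An exact permutation test by sign flips of 3 replicates cannot go below p = 0.25, so none is given.

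Gene symbols came from an old platform annotation; 22004 probes were unnamed here, and all 44 members matched RefSeq symbols. No build was named for the probes, so no coordinates are given, and sequences and promoter motifs were not analysed here.

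The members, lists, tests and alternatives were chosen with earlier results of these data known. Replicate values were given for called members, for those of next smallest adjusted p up to 20, and for members whose probes differed in sign; called genes of the other lists were named, as were some uncalled ones chosen after their values were seen (AMH, INHBA, BMP15, ZP2, GDF9, FST, CYR61, CTGF, and TGFBR2, ID1 and ID2 among the members). Alternatives covered background correction, normalization, filter, model, pairing, authors' values, arrays, replicates, threshold and probe choice. The steps were tested on simulated data.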

Additional observations from a re-analysis of the deposited data

Results flagged for a closer look

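The 6 array values of the 22 members with replicate values, and the members' median, were searched for a single array far from the others (Dixon's test). None of these 23 sets had one, where chance alone gives about 1.15 if the 6 values are independent. The arrays are dye-swapped pairs of the same replicates and so are not independent, and finding none says little.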

How the results depend on the processing

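Higher and lower probes numbered 1035 and 1173, and higher and lower members 3 and 3, with 8.75% of all tested genes called. Where these moved by over 1.5 times, the cause was not tested unless the setting itself gives it. Without background correction there were 570 and 482 probes and 1 and 1 members (TGIF2 and SMAD3), with 4.45% of tested genes called. Plain subtraction gave 714 lower probes and the same 1 and 1 members (5.95% of tested genes called). Offset 0 gave 1863 lower probes and 5 higher members (12.3% of tested genes called). Median centring gave 777 higher and 1848 lower probes, so that 29.6% of called probes were higher, against 46.9%. A filter for detection on all 6 arrays gave 5 higher members (16.3% of tested genes called). With 6 arrays and a random replicate block (consensus correlation 0.389) there were 2674 and 3381 probes and 9 and 7 members (22.5% of tested genes called). Unpaired, with no replicate block, there were 468 and 558 probes. With rFSH in Cy5 (3 arrays) there were 1565 and 1833 probes and 5 and 6 members (12.8% of tested genes called). With rFSH in Cy3 there were 1581 higher probes. Without the second array of replicate 2 (rFSH in Cy3) there were 6 lower members (11.3% of tested genes called). By construction of the threshold, an adjusted p under 0.1 gave 2330 and 2770 probes and 7 and 5 members (18.8% of tested genes called). Requiring 2-fold likewise gave 475 and 575 probes and 0 lower members (4.47% of tested genes called). Leaving out each replicate gave 0 to 510 higher and 0 to 675 lower probes, with 0% to 5.06% of tested genes called. Members called in limma were 0 higher and 0 to 1 lower. At an unadjusted p under 0.05 there were 14 to 17 members, against 22 with all replicates, and 6874 to 7399 probes, against 8809. The members' median ranged from -0.02 to 0.08.

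Of 14 alternatives that kept all replicates, TGIF2 and SMAD3 lost their call under 1, without pairing (adjusted p of 0.168 and 0.0779), ACVR1B under 3 (up to 0.0642), TGFB2 under 4 (up to 0.0720), and BMP6 and NOG under 5 (up to 0.0767 and 0.0673). With the authors' values, ACVR1B, GREM1, SMAD3 and TGIF2 were called, as were 7.85% of tested genes. The alternatives on probe choice are counted among the 14, but each called member has 1 probe, so its replicate values stayed the same under them. No called member changed sign. Over these alternatives and those that left out a replicate, the sign changed under at least 1 for 14 of 37 tested members, all of them uncalled and with ratios of at most 0.40 in size. Of the 22 members chosen by the naming rule these were SKIL (0.0520, rFSH in Cy5 only), TGFBR3 (0.0762, rFSH in Cy3 only, and -0.284 to 0.222 with a replicate left out) and BAMBI (-0.0301, mean of its probes); the others, such as SMAD7, TGFBR2, ENG and ID1, lay outside it. Dim signal limits SMAD3 and TGFB2 most among the called members.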
